A study of Rattus norvegicus with 6 samples.

Results

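Transcript levels of 6 tubulin genes and 4 genes of microtubule-associated proteins (MAPs) were examined in cultured rat oligodendrocyte precursor cells exposed to alpha-synuclein fibrils. The 10 genes (Tuba1a, Tubb2a, Tubb2b, Tubb4a, Tubb5, Tubb6, Mapt, Map1b, Map2 and Map4) were taken by symbol from a table of 32662 rat genes; each symbol occurred in 1 row. All 10 passed the filter on low values that left 10766 genes for testing. The cells were primary precursors from the cerebral cortex of Sprague-Dawley rats aged 1 to 2 days. They were collected as the floating fraction of mixed glial cultures grown with 20% fetal bovine serum and then held for 4 to 5 days in medium with 2% B27, 10 ng/ml PDGF and 10 ng/ml FGF. Both groups shared this culture. The control group (3 libraries) had no fibrils, and the fibril group (3 libraries) met preformed fibrils of human alpha-synuclein for 72 hours. The labels do not say that replicates are separate cultures or litters. Each p-value therefore reflects the variation among these 6 libraries alone, and that variation may be technical.

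Microtubules are hollow polymers of alpha- and beta-tubulin dimers, and each tubulin is encoded by several genes (isotypes) whose proteins differ mainly in their acidic tails. MAPs bind along the polymer, stabilise it and space it from its neighbours. In oligodendrocytes microtubules fill the processes that reach axons and carry myelin basic protein mRNA outwards, and mutations of human TUBB4A, an isotype gene of oligodendrocytes and neurons, cause a disease with loss of myelin. Tau, the product of Mapt, is a neuronal MAP that oligodendrocytes also make.

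Levels are in FPKM, fragment numbers scaled to transcript length and to the library's mapped fragments, which allows genes to be compared within a library. The number of fragments is unknown. By an estimate from the commonest ratios of low values, a single fragment weighed 4.01-fold (control) and 6.88-fold (fibril) more in replicate 1 than in control replicate 2; for the other 3 libraries the factor was 0.809 to 1.95. Replicate 1 was also the most mitochondrial, with 80.3% (control) and 75.6% (fibril) of all FPKM from mitochondrial genes, while the remaining libraries had 12.00% to 40.1%. All 8 precursor markers checked were above 0, with summed levels of 1483 to 2451 FPKM in controls and 1208 to 1415 FPKM with fibrils. The 10 markers of differentiating oligodendrocytes summed to 322 to 786 FPKM against 2180 to 3987 FPKM.

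The difference between fibril and control replicate 3 varied with locus span, in a way that touches these genes. When the tested genes were put into 4 equal classes by the span of their locus, the median log2 difference between fibril and control replicate 3 was 0.62 in the shortest class (up to 9.37 kb), then 0.24, -0.23 and -0.80 in the longest (59.5 kb and over). Replicate 1 ran from 0.10 to -0.11 over the same classes, and replicate 2 stayed between -0.05 and -0.02. Of the tubulin genes, Tuba1a (3.67 kb), Tubb2a, Tubb4a and Tubb5 lie in the shortest class, Tubb6 in the next and Tubb2b (41.1 kb) in the third. All 4 MAP genes, at 93.4 to 146 kb, lie in the longest. Whether the fibril or the control library of replicate 3 carries this trend was not tested, nor was its part in the results below.

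**Figure D1:**
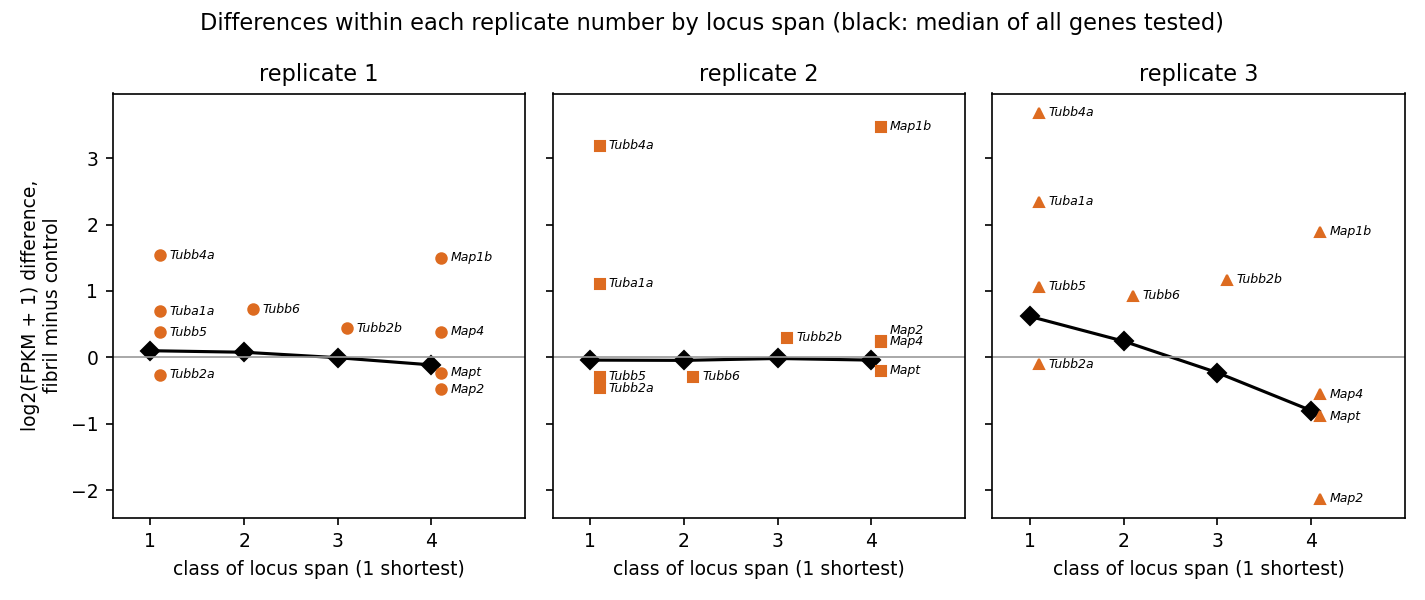
Log2(FPKM + 1) difference (fibril minus control, y axis) within replicates 1, 2 and 3 against the class of locus span (x axis, 1 shortest). Black diamonds are medians of all 10766 tested genes, which fall from 0.62 to -0.80 in replicate 3, and orange markers are the 10 members; Map1b lies at 1.89 in the longest class of replicate 3.

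The clearest differences among the 10 genes were higher Tubb4a, Map1b and Tuba1a in the fibril libraries. On the scale log2(FPKM + 1), which understates the change of low genes, these 3 had differences above 1, against 3.56% of all tested genes; 0 were lower by as much (4.45%). No member passed an adjusted p of 0.05 by limma, nor did any of the 10766 genes (0.0% called in either direction). At an unadjusted p under 0.05, 2 of 10 members (Tubb4a and Map1b, both higher) stood against 4.02% of all genes. With the replicate number as a block, 0 of 10 members passed while 12 genes were called higher (0.111%) and 0 lower (0.0%). At an unadjusted p under 0.05 the block gave 3 members (9.84% of all genes), Tubb4a, Map1b and Tuba1a, all higher (4.87%) and 0 lower (4.97%). In bulk RNA, fewer cells of a type and less RNA per cell cannot be told apart.

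**Figure D2:**
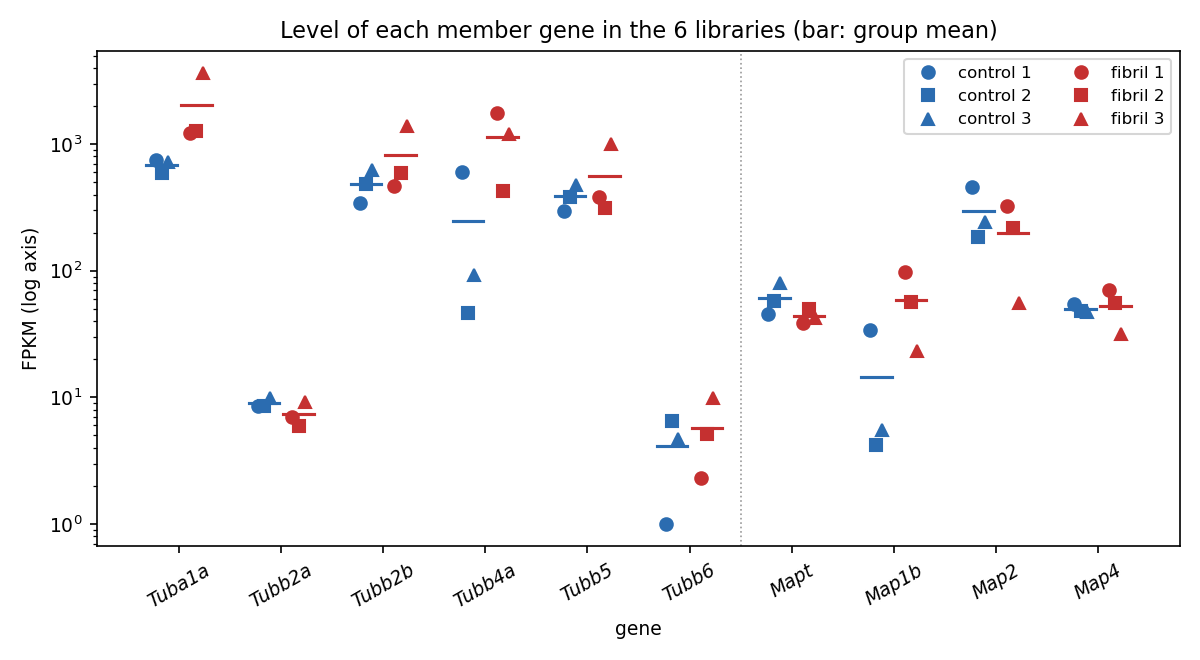
FPKM (log axis) of the 10 member genes in each library, tubulins left of the dotted line and MAPs right of it; blue is control, red is fibril, marker shape is the replicate number and the bar is the group mean. The 3 fibril libraries lie above the 3 controls for Tuba1a, while for Tubb4a and Map1b control replicate 1 lies among the fibril libraries.

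Tuba1a, the main alpha-tubulin of developing brain, was the most abundant member by group mean in both groups, although Tubb4a exceeded it in fibril replicate 1. It is listed as ENSRNOG00000060728 at chromosome 7, 140637286 to 140640953, in the coordinates of the deposited table. Tuba1a had 753, 591 and 717 FPKM in control replicates 1, 2 and 3 and 1217, 1277 and 3629 FPKM in fibril replicates 1, 2 and 3. All 3 fibril libraries lay above all 3 controls, the one member of 10 whose groups did not overlap (9.55% of all genes; 4.24% higher, where 1 member was, and 5.3% lower, where 0 were), and fibril replicate 3 was far above the rest. Group means were 687 ± 84.7 and 2041 ± 1375 FPKM (SD, n = 3 each), a ratio of 2.97. The log2 difference was 1.38 (95% interval -0.13 to 2.89; limma adjusted p = 0.96), and 0.87 without fibril replicate 3. Scaling the libraries to equal totals outside the mitochondrial genome, which moved the median of all genes from -0.04 to -0.30, gave 1.07. The groups stayed apart, but narrowly: in scaled units fibril replicate 1 was at 2607 and control replicate 3 at 2521. The share of all genes lying apart after this scaling was not computed, so the separation is not read as particular to Tuba1a.

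The close relatives Tuba1b, Tuba1c and Tuba4a were much lower. Tuba1b, an alpha-tubulin of most cells, measured 52.9, 165 and 164 FPKM in the controls, against 96.4, 139.6 and 304 FPKM after fibrils. Tuba1c was at most 1.01 FPKM and Tuba4a at most 2.64 FPKM in the 6 libraries. Fragments can be assigned to more than 1 of these near-identical coding sequences, so the division among them is uncertain. Tuba1a made up 93.3%, 78.0% and 81.3% of the summed alpha-tubulin FPKM in controls and 92.7%, 90.0% and 92.2% with fibrils. Summed over alpha-tubulin genes the level was 758 to 882 FPKM in controls and 1313 to 3936 FPKM with fibrils. These ranges do not overlap as deposited, but they do after scaling without mitochondrial genes.

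Tubb4a, the beta-tubulin isotype that rises as oligodendrocytes mature, differed most among the members. It is listed as ENSRNOG00000047505 at chromosome 9, 9961020 to 9968486. Tubb4a had 606, 46.0 and 92.9 FPKM in control replicates 1, 2 and 3 and 1762, 428 and 1206 FPKM in fibril replicates 1, 2 and 3. Control replicate 1 lay above fibril replicate 2, so the groups overlap. Within each replicate number the fibril library was higher, by 2.91, 9.29 and 12.98 times; 4 of 10 members were higher in 3 of 3 numbers (16.9% of all genes). The log2 difference was 2.80 (95% interval 0.62 to 4.99), with limma unadjusted p = 0.0176 and adjusted p = 0.96, or adjusted p = 0.125 with the block. Without control replicate 1 the difference was 3.87. Without control replicate 2 it was 2.02, without control replicate 3 it was 2.52 and without fibril replicate 3 it was 2.65, and in each of these 3 fits the 95% interval reached below 0 (limma unadjusted p = 0.0771, 0.0558 and 0.0600). Its rank among all genes of a library was 120, 1301 and 533 in control replicates 1, 2 and 3 and 39, 123 and 68 in fibril replicates 1, 2 and 3, so control replicate 1 ranked it just ahead of fibril replicate 2.

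Among 7478 other tested genes with a mean of at least 5 FPKM, Cdkn1c, a cell cycle inhibitor gene, was one of the 2 whose centred profiles lay nearest to Tubb4a. The root mean square difference was 0.46 on the log2 scale over the 6 libraries. Cdkn1c was at 287.8, 29.4 and 46.6 FPKM (control) and at 425, 147.8 and 429 FPKM (fibril), so control replicate 1 was the high control there too. Summed markers of differentiating oligodendrocytes were also highest among the controls in replicate 1 (786 FPKM) and lowest in replicate 2 (322 FPKM). The likeness is a description over 6 libraries that share their treatment.

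The other beta-tubulins showed smaller differences. Tubb2b, an isotype of developing brain, measured 342, 483 and 619 FPKM in the controls, against 463, 592 and 1389 FPKM after fibrils. It was higher in 3 of 3 replicate numbers, but only fibril replicate 3 lay above the control range. Tubb2b had a log2 difference of 0.63 (95% interval -0.76 to 2.02), 0.16 without fibril replicate 3 and 0.02 under quantile normalization. Tubb5, the beta-tubulin of dividing and most other cells, had 296, 384 and 477 FPKM against 384, 313 and 995 FPKM. It too stood out in fibril replicate 3 alone. The difference of Tubb5 was 0.38 (95% interval -0.97 to 1.73) and turned to -0.13 without fibril replicate 3. Tubb6, a low isotype here, had 1.01, 6.54 and 4.72 FPKM against 2.32, 5.14 and 9.87 FPKM, with replicate 1 low in both groups. Its difference of 0.45 became -0.12 without control replicate 1 and 0.03 without fibril replicate 3.

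Tubb2a, the neighbour and close paralog of Tubb2b on chromosome 17, was low and steady. Tubb2a measured 8.61, 8.57 and 9.96 FPKM in the controls, against 7.003, 5.93 and 9.18 FPKM after fibrils. It was lower with fibrils in 3 of 3 replicate numbers, as was Mapt among the members (2 of 10; 19.3% of all genes). The log2 difference of Tubb2a was -0.28 (95% interval -1.11 to 0.55), and -0.43 without fibril replicate 3. After scaling without mitochondrial genes, all 3 fibril libraries lay below all 3 controls, though the groups overlap as deposited. That scaling moved the Tubb2a difference to -0.56, and the median of all genes from -0.04 to -0.30. The share of all genes lying apart after it was not computed, so the separation is not read as particular to Tubb2a. Fragments shared between Tubb2a and Tubb2b could have been assigned to either, so the gap between them is uncertain.

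The promoters of this neighbouring pair are shown because the genes lie side by side and differ so widely in level, and those of Tubb4a and Map1b because these members differed most between groups. Each run is the 250 bases before the gene's start in RefSeq (build GRCr8), 5′ to 3′ in the direction of transcription, with motif matches in capitals. The regions are chr17:31001936-31002185 (plus strand), chr17:30952836-30953085 (plus strand), chr9:2012282-2012531 (minus strand) and chr2:32644472-32644721 (minus strand), in the order printed.
Tubb2a: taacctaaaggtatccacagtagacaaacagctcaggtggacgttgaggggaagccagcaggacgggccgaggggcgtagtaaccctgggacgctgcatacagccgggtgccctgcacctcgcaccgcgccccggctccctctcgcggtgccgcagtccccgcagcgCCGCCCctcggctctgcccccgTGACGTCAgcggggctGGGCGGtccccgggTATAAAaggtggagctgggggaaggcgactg
Tubb2b: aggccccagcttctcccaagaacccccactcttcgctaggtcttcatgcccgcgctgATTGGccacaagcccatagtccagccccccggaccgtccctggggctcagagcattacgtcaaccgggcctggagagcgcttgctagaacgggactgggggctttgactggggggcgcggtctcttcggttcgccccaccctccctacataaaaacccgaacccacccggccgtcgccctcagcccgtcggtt
Tubb4a: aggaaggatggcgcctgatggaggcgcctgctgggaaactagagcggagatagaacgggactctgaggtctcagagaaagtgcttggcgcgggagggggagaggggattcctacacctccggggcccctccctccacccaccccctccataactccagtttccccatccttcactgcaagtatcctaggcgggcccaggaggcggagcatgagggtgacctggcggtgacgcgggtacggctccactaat
Map1b: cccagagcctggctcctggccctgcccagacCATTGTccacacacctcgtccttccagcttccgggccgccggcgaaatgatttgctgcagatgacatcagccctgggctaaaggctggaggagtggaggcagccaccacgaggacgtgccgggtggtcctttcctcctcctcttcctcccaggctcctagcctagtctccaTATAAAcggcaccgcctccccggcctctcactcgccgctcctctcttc

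Motifs searched on both strands were the TATA box (TATAAA), the CCAAT box (CCAAT), the GC box (GGGCGG), the cAMP response element (TGACGTCA) and a SOX core (ACAANG); none overlap in these runs. Among 33469 rat promoters of this length, 12.9% hold TATAAA, 34.0% CCAAT, 30.5% GGGCGG, 1.59% TGACGTCA and 36.9% ACAANG. Positions are counted back from the gene's start. Tubb2a holds TATAAA at -31, TGACGTCA at -61 and GGGCGG at -83 (opposite strand) and -45. Tubb2b holds CCAAT alone, at -193 on the opposite strand. Map1b holds TATAAA at -48 and ACAANG at -219 (opposite strand). In Tubb4a the window holds none of the 5, which says only that these letters are not in it. All 4 windows are rich in G and C (62.8% to 68.4%, against a median of 51.2%). Of the other members, Tuba1a, Tubb5, Tubb6 and Map2 matched the promoter table and Mapt and Map4 did not.

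Shares within a library do not depend on how the library was scaled, and they placed Tubb4a differently in each library. Summed over 8 beta-tubulin genes (the 5 members with Tubb1, Tubb3 and Tubb4b), the level was 1011 to 1331 FPKM in controls and 1419 to 3868 FPKM with fibrils, ranges that overlap after scaling without mitochondrial genes. Tubb4a made up 45.9%, 4.55% and 6.98% of this sum in control replicates 1, 2 and 3 and 65.5%, 30.1% and 31.2% in fibril replicates 1, 2 and 3. Control replicate 1 thus lay above fibril replicates 2 and 3. The mean share was 19.1 ± 23.2% against 42.3 ± 20.1% (SD, n = 3 each), a difference of 23.1 points (two-sided exact permutation p = 0.3, Benjamini-Hochberg adjusted over 5 isotypes 0.5). Leaving out fibril replicate 1 gave 11.5 points and leaving out control replicate 1 gave 36.5 points. With 3 libraries against 3, the smallest p an exact permutation test allows is 0.1.

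Shares sum to the whole, so a higher share of Tubb4a lowers the sum of the rest, not each of them. Tubb2b made up 25.9%, 47.8% and 46.5% in controls and 17.2%, 41.7% and 35.9% with fibrils, and its groups overlap (exact permutation p = 0.5, n = 3 each). Leaving out fibril replicate 1 shrank the Tubb2b difference from -8.43 to -1.24 points, and leaving out control replicate 1 widened it to -15.5 points. Tubb5 made up 22.4%, 38.0% and 35.9% against 14.3%, 22.03% and 25.7% (exact permutation p = 0.2, n = 3 each). Tubb2a, at 0.652% to 0.848% in controls and 0.237% to 0.418% with fibrils, was one isotype whose groups did not overlap (exact permutation p = 0.1, adjusted 0.5, n = 3 each). Tubb6 stayed under 0.65% in every library (exact permutation p = 0.7, n = 3 each). Outside the members, the neuronal isotype Tubb3 made up 1.18% to 2.25% in controls and 0.32% to 0.884% with fibrils. Tubb4b, an isotype of most tissues, made up 3.88% to 7.31% against 2.30% to 6.09%.

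**Figure D3:**
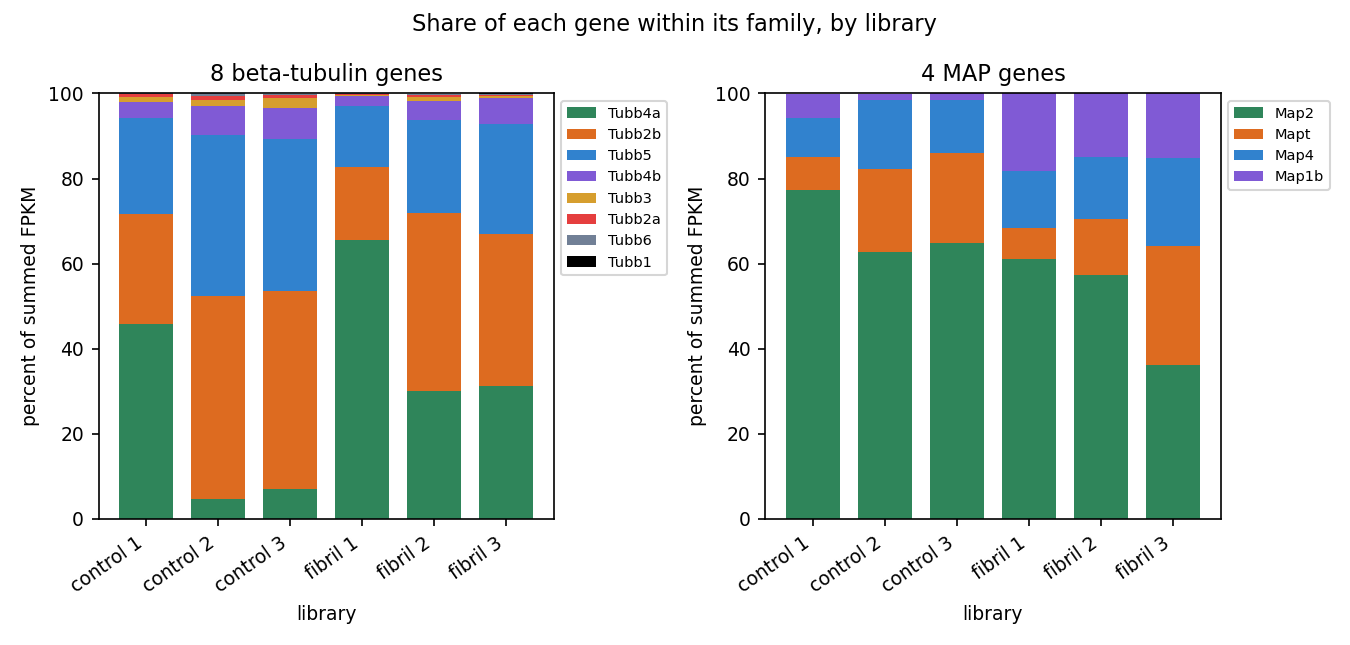
Percent of summed FPKM (y axis) taken by each of 8 beta-tubulin genes (left) and each of 4 MAP genes (right) in the 6 libraries (x axis). Tubb4a takes 4.55% and 6.98% of beta-tubulin in control replicates 2 and 3 and 30.1% and 31.2% in fibril replicates 2 and 3, and Map1b takes 1.44% to 5.74% of the MAP sum in controls and 14.9% to 18.2% with fibrils.

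Map1b, a large MAP of growing neurites that oligodendrocytes also express, was the MAP with the widest difference. It is listed as ENSRNOG00000017428 at chromosome 2, 29675390 to 29768750. Map1b had 33.8, 4.23 and 5.51 FPKM in control replicates 1, 2 and 3 and 97.0, 57.1 and 23.1 FPKM in fibril replicates 1, 2 and 3. Control replicate 1 lay above fibril replicate 3, so the groups overlap, while each fibril library exceeded its own replicate number by 2.87, 13.5 and 4.19 times. The log2 difference was 2.29 (95% interval 0.51 to 4.06), with limma unadjusted p = 0.0175 and adjusted p = 0.96, or adjusted p = 0.147 with the block. It was 3.14 without control replicate 1. Without control replicate 2 it was 1.78 and without control replicate 3 it was 1.94, both with intervals that reached below 0 (limma unadjusted p = 0.0632 and 0.0624). The nearest centred profiles were those of Map6d1, a gene related to the stable-microtubule protein Map6 (root mean square difference 0.40), and Aim2, a sensor of cytosolic DNA (0.43). Map6d1 was at 50.9, 7.97 and 11.99 FPKM (control) and at 130.8, 54.0 and 22.1 FPKM (fibril).

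As a share of the 4 MAP genes together, Map1b separated the groups. It made up 5.74%, 1.44% and 1.46% of their summed FPKM in controls and 18.2%, 14.9% and 15.1% with fibrils. Every fibril share was above every control share and the 3 fibril values lay close together. The summed level was 588, 294 and 377 FPKM in control replicates 1, 2 and 3 and 532, 383 and 153 FPKM in fibril replicates 1, 2 and 3. The share in fibril replicate 3 was thus taken of the lowest sum. Map1b itself was at 23.1 FPKM there, below control replicate 1 (33.8 FPKM), so the close shares do not mean a steady level of Map1b. The mean was 2.88 ± 2.48% against 16.1 ± 1.86% (SD, n = 3 each), a difference of 13.2 points (two-sided exact permutation p = 0.1, adjusted over 4 genes 0.2). Leaving out any 1 library kept the difference between 12.1 and 14.6 points.

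Map2, known as the dendritic MAP of neurons and also made by young oligodendrocytes, was the most abundant of the 4 MAP genes by mean level in both groups. Map2 measured 454, 184 and 244 FPKM in the controls, against 325, 219 and 55.1 FPKM after fibrils. Replicates 1 and 2 of the groups overlap and fibril replicate 3 alone lay below the control range. The log2 difference was -0.79 (95% interval -2.40 to 0.83; limma adjusted p = 0.96) and -0.03 without fibril replicate 3. Its share of the MAP sum was 77.3%, 62.7% and 64.9% in controls and 61.2%, 57.3% and 36.1% with fibrils. All 3 fibril shares lay below all 3 controls (exact permutation p = 0.1, adjusted 0.2, n = 3 each). The MAP shares also sum to the whole, so the separations of Map1b and Map2 are not independent. In replicate 2 the level of Map2 was higher with fibrils (219 against 184 FPKM) while its share was lower (57.3% against 62.7%). The share difference of -16.7 points became -9.04 points without fibril replicate 3.

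Mapt, which encodes tau, was slightly lower with fibrils. Mapt measured 45.4, 57.8 and 79.8 FPKM in the controls, against 38.6, 50.1 and 42.6 FPKM after fibrils. The groups overlap, and each fibril library lay below its own replicate number. Group means were 61.0 ± 17.4 and 43.8 ± 5.86 FPKM (SD, n = 3 each). The log2 difference was -0.44 (95% interval -1.33 to 0.45; limma adjusted p = 0.96), and -0.23 without control replicate 3. Mapt took 7.73% to 21.2% of the MAP sum in controls and 7.25% to 28.0% with fibrils (exact permutation p = 1, n = 3 each).

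Map4, the MAP of most non-neuronal cells, showed no steady difference. Map4 was at 54.2, 47.7 and 47.1 FPKM (control) and at 71.1, 56.0 and 31.7 FPKM (fibril), above the controls in replicates 1 and 2 and below them in replicate 3. Its log2 difference was 0.02 with a 95% interval of -0.94 to 0.98, which leaves room for changes of nearly 2-fold in either direction. Without fibril replicate 3 it was 0.34. As a share of the MAP sum it made up 9.21% to 16.2% against 13.4% to 20.8% (exact permutation p = 0.4, n = 3 each).

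**Figure D4:**
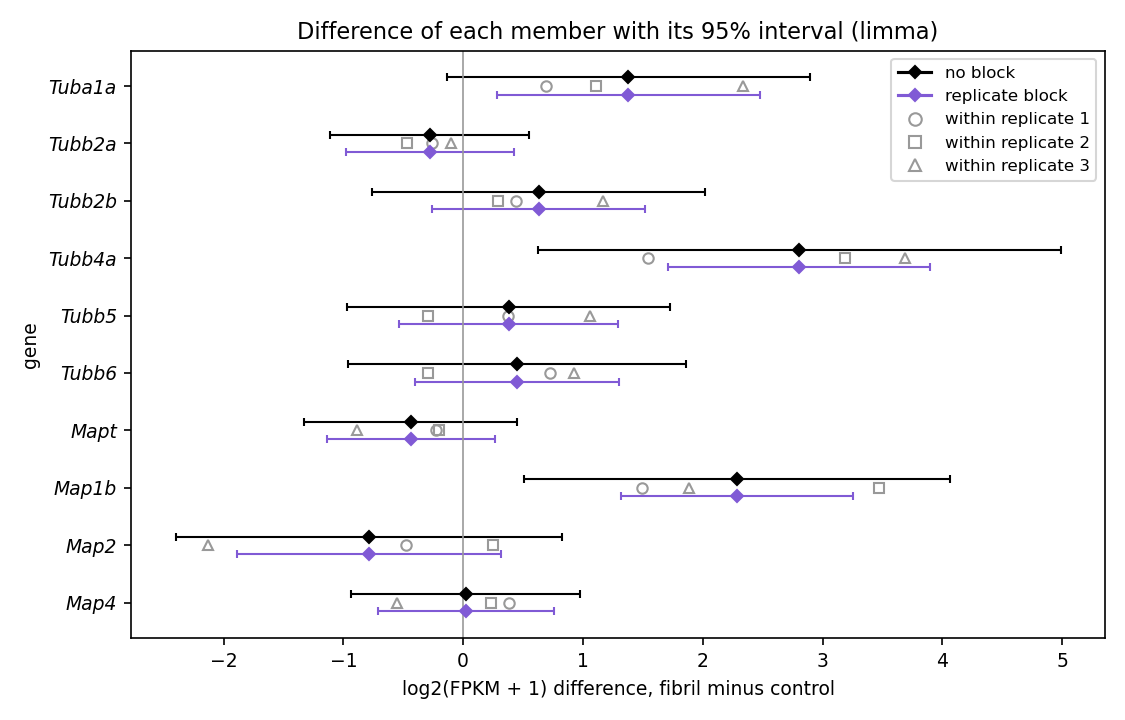
Log2(FPKM + 1) difference, fibril minus control (x axis), of each member (y axis) by limma without a block (black) and with the replicate number as a block (purple), with 95% intervals; grey symbols are the differences within replicates 1, 2 and 3. Without a block the intervals of Tubb4a (0.62 to 4.99) and Map1b (0.51 to 4.06) lie above 0, and that of Tuba1a is -0.13 to 2.89.

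Ordered by mean level, the controls ran Tuba1a, Tubb2b, Tubb5, Map2, Tubb4a, Mapt, Map4, Map1b, Tubb2a and Tubb6. Ranges of neighbours in that order overlap, except for Map4 over Map1b and Tubb2a over Tubb6. With fibrils the order was Tuba1a, Tubb4a, Tubb2b, Tubb5, Map2, Map1b, Map4, Mapt, Tubb2a and Tubb6, and among neighbours only Mapt and Tubb2a had ranges apart. Tubb4a thus stood at place 5 in controls and 2 with fibrils, and Map1b at 8 and 6. Over the 10 members the median log2 difference was 0.41 (0.54 for the tubulins and -0.21 for the MAPs), against -0.04 for all tested genes. It was 0.10 without fibril replicate 3, and -0.06 under quantile normalization. Positive differences were found for 7 of 10 members and 47.0% of all genes.

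Profiles of the remaining members resembled those of genes that are not in the lists of microtubule genes described below. The nearest 2 genes were Bin1 and Aldoa for Tuba1a (root mean square differences of 0.14 and 0.15), Ppt2 and Psmd3 for Tubb2b, Bre and Cpt2 for Tubb5, and Adprhl2 and Eif3g for Tubb6. For Tubb2a they were Glud1 and Ptpra, for Mapt Ythdf2 and Gtpbp1, for Map2 Csnk2a1 and Kmt2e, and for Map4 Pabpc1 and Supt20. Among the members themselves, Tubb2b and Tubb5 had the most similar profiles (0.23).

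Markers of other cells that such a culture can carry were measured beside these genes. Neuron markers (10 of 10 above 0) summed to 316 to 395 FPKM in controls and 245 to 290 FPKM with fibrils, most of it Gap43, while Rbfox3, the gene of the neuronal nuclear antigen NeuN, was at 3.06 to 12.4 FPKM. Astrocyte markers (7 of 8 above 0 in some library, Gjb6 at 0 in all libraries) summed to 57.2 to 85.0 FPKM against 23.0 to 51.4 FPKM. Within that list Gfap, an astrocyte filament gene, went the other way, at 0.370 to 0.733 FPKM in controls and 3.69, 6.20 and 24.8 FPKM in fibril replicates 1, 2 and 3. Microglia and macrophage markers (8 found of 9, each above 0 in some library but most not in all) summed to 1.31 to 37.9 FPKM against 9.49 to 49.0 FPKM. Fibroblast and mural markers summed to at most 0.235 FPKM and endothelial markers to at most 0.282 FPKM in any library. The part of neurons, astrocytes and microglia in the tubulin and MAP differences was not tested.

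Other genes of the microtubule system were drawn from 9 lists holding 114 genes, of which 94 were tested. By limma 0 of them passed an adjusted p of 0.05, with the block or without it. At an unadjusted p under 0.05 without the block, 3 were higher and 3 lower (2.21% and 1.81% of all genes), and the median difference was -0.07. Those higher were Stmn4, Sirt2 and Map7, and those lower were Dcx, Cdk5r1 and Mark1.

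Stmn4, a stathmin that binds free tubulin dimers, measured 24.3, 18.5 and 24.9 FPKM in the controls, against 92.2, 53.9 and 255.8 FPKM after fibrils. The groups do not overlap, with a log2 difference of 2.23 (limma adjusted p = 0.736). Sirt2, a tubulin deacetylase abundant in myelinating oligodendrocytes, had 728, 299.7 and 371 FPKM against 1769.7, 1297 and 2478 FPKM, likewise without overlap (difference 2.04; limma adjusted p = 0.96). Map7, which recruits kinesin-1 to microtubules, had 44.6, 23.5 and 21.2 FPKM against 77.0, 50.5 and 55.1 FPKM (difference 1.06). Dcx, a MAP of migrating young neurons, had 92.7, 50.6 and 71.2 FPKM against 42.4, 37.7 and 16.7 FPKM (difference -1.18). Cdk5r1 (difference -1.57), which encodes the activator of the tau kinase Cdk5, and Mark1 (-0.86), another tau kinase, were the other lower ones. Fyn, a kinase that binds tau in oligodendrocytes, had 414, 149 and 222 FPKM against 555, 362 and 565 FPKM (difference 1.01).

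By list, tubulin folding cofactors, which build the dimer, had positive differences for 5 of 5 tested genes (median 0.80). Their smallest p-values were those of Arl2 (difference 1.14), Tbca (0.80) and Tbcc (0.91). In that order the fibril to control ratios were 2.60, 1.35 and 1.73 in replicate 1 and 1.03, 1.23 and 0.998 in replicate 2. In replicate 3 they were 4.31, 3.19 and 4.62, so the sizes rest mostly on replicates 1 and 3. Among all tested genes 47.0% of differences were positive. In the gamma-tubulin ring complex, which seeds new microtubules, 8 of 9 differences were negative (median -0.27), led by Tubgcp6 (-0.74), Nedd1 (-0.55) and Mzt1 (-0.91). The other tubulins had 5 of 7 positive (median 0.28), led by Tubg1 (0.75), Tubb3 (-0.41) and Tuba1b (0.50). Other structural MAPs were divided 7 to 7 (median 0.02), with Map1a at 1.03. Plus- and minus-end binders had 5 of 14 positive (median -0.07), led by Mapre3 (0.62), Clip4 (-0.83) and Clasp1 (-0.90). Destabilisers had 4 of 11 positive (median -0.23), with Stmn2 at -0.60 and Kif2a at -0.69 beside Stmn4. Tubulin-modifying enzymes had 5 of 13 positive (median -0.11), with Ttll5 at 0.68 and Ttll7 at -0.63. Tau kinases had 5 of 10 positive (median 0.003), while the phosphatase gene of that list, at 0 in all libraries, was not tested. Motors had 5 of 11 positive (median -0.18), led by Klc2 (0.86), Kif3a (-0.61) and Dync1h1 (-0.81). Scaling without mitochondrial genes, under which the median of all genes was -0.30, gave medians of 0.49 for the cofactors, -0.56 for the ring complex, -0.27 for the structural MAPs and -0.28 for the tau kinases, the last pair close to that of all genes. When 1 library was left out, the medians of the cofactors (0.34 to 1.04) and the ring complex (-0.43 to -0.16) kept their sign. The other 7 lists changed sign at least once. Those changes came without control replicate 1 (other tubulins, end binders, tau kinases), control replicate 2 (modifying enzymes), control replicate 3 (end binders, modifying enzymes), fibril replicate 1 (destabilisers), fibril replicate 2 (structural MAPs, tau kinases) or fibril replicate 3 (other tubulins, end binders, motors).

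**Figure D5:**
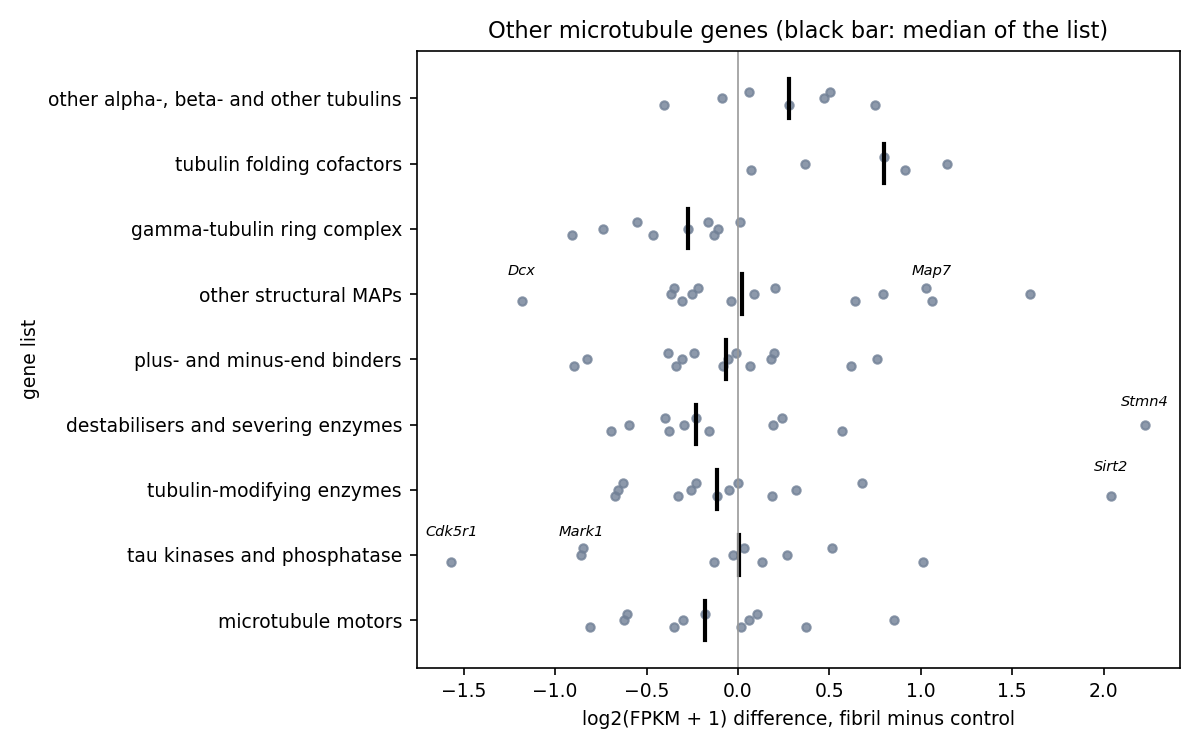
Log2(FPKM + 1) difference, fibril minus control (x axis), of the tested genes of 9 microtubule gene lists (y axis); each point is a gene and the black bar is the median of the list. The medians run from -0.27 (gamma-tubulin ring complex) to 0.80 (tubulin folding cofactors), and the 6 genes with an unadjusted limma p under 0.05 are named.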

How the data were processed

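Strand-specific RNA libraries (Agilent SureSelect) from rat precursor cells (3 control, 3 fibril) went onto an Illumina MiSeq, per the labels' protocols and the series' design text. The deposited table gives FPKM, computed by the authors, 1 column per library, per the file headers. The submitters' processing notes name Trimmomatic and FastQC. Aligner, quantifier and genome build: not given in the sources used here. Hprt1 and Rps6, used by every cell, are listed at 0 in all libraries, so a 0 can be a failed estimate.

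Values were analysed as log2(FPKM + 1) for genes reaching 1 FPKM in 3 or more libraries. Group differences came from limma 3.58.1 run in R 4.3.3 (mean-variance trend, two-sided, Benjamini-Hochberg over all 10766 genes, threshold 0.05). Shares used exact permutation tests over libraries. The relative worth of 1 fragment came from ratios of genes below 1 FPKM to fibril replicate 3, as the commonest ratio within 0.03 (log2), which only 16.3% to 19.7% of the genes used shared, so it is an estimate. Simulated data, with noise drawn independently for each gene, served only to check that the fits returned added differences of known size. That check set no condition on how many genes are called. The members and lists were chosen with earlier results of these data known. Named genes are all members, the 3 smallest p-values of each list, Tubb3, Tubb4b, Tuba1b, Tuba1c and Tuba4a, and the 2 nearest profiles of each member (1 gene is not reported here); the library and locus-span descriptions followed the data.

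Both groups carry replicate numbers 1 to 3. After group means were subtracted, same-numbered libraries correlated across genes at 0.747, 0.364 (replicate 2) and 0.216 (replicate 3). Each exceeds 0.1, so fits with the number as a block were run beside the main fit, which had no block. The permutation tests of shares were unpaired. Sign-flip tests with the numbers as pairs gave no share a p below 0.25, the smallest that 3 pairs allow. The crossed values among replicates 2 and 3 were higher (0.500 for control 3 to fibril 2, 0.433 for control 2 to fibril 3), so the pairing of replicates 2 and 3 is not particular to their numbers. The labels do not state a pairing.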

Additional observations from a re-analysis of the deposited data

How the results depend on the processing

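Of 150 refits of member differences (15 alternative fits of 10 genes), 11 changed sign and 0 gave an adjusted p under 0.05; the lowest was 0.125, for Tubb4a with the replicate block. Map4 turned to -0.15 under quantile normalization and -0.16 in replicates 2 and 3 only. Scaled without mitochondrial genes it was -0.28, with and without the replicate block, and the median of all genes was then -0.30. Leaving out 1 library gave -0.23 to 0.34 for Map4. Tubb5 turned to -0.22 under quantile normalization and ran from -0.13 to 0.71 when 1 library was left out, and Tubb6 from -0.12 to 0.88. The other 7 members kept their sign. Among all genes 12 were called higher with the replicate block, 1 with the block and scaling without mitochondrial genes, and 0 to 3 when 1 library was left out (3 without fibril replicate 3). With all libraries and no block limma called 0 genes, with 433 at an unadjusted p under 0.05. At an adjusted p of 0.05 the block changed no call of a member or listed gene. At an unadjusted p under 0.05 it added Tuba1a to the members. Counts of listed genes changed too, as in structural MAPs (higher from 1 to 4, lower 1 in both fits). Of 9 shares, 7 kept their sign. The Mapt share, -0.0848 points with all libraries, ran from -6.01 to 4.34 when 1 library was left out and was 0.111 in replicates 2 and 3 only; the Tubb6 share ran from -0.266 to 0.0188. The cause of these changes was not tested. Low values of replicate 1, where 1 fragment weighs most, are the least precise.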
